A study of Mus musculus with 6 samples.

Results

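The 8 genes described here are the survival and death genes of the Bcl2 family that the data hold under the symbols Bcl2, Bcl2l1, Mcl1, Bcl2l11, Bbc3, Pmaip1, Bax and Bak1. They were picked by symbol, with earlier results of these data known, from 28048 annotated genes, of which 18889 had at least 1 unique molecular identifier (UMI, one tagged transcript copy) in the cells kept. The data are single-cell counts from sci-RNA-seq3, which labels fixed cells or nuclei by rounds of well barcodes, and GEO's labels give nuclear RNA as the molecule. Progenitors were grown from mouse bone marrow on OP9-DL1, a mouse stromal line that presents the Notch ligand DL1. They were sorted as DN1 (CD44+CD25-), DN2a (CD44+CD25+Bcl11b-) or DN2b (CD44+CD25+Bcl11b+) and cultured again on OP9-DL1 for 4 days. The paper lists the cytokines IL-7, IL-2, SCF and IL-15 for these experiments, and Flt3-L with IL-7 for all its T cell cultures. The mice were C57BL/6 and carried a fluorescent reporter on both copies of Bcl11b, the gene of a T cell commitment factor. In the ΔTE mice both copies also lacked the timing enhancer of Bcl11b, and in the animals called WT here this enhancer was intact. Marrow progenitors of several young adult mice of both sexes were pooled. Each of the 6 combinations of genotype and start was 1 library, so that a comparison of 2 libraries has no replicate and no p-value. A fit over all 6 libraries, with genotype and start as additive terms, is given beside these comparisons.

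Cells die through the mitochondrial pathway when Bax or Bak1 opens the outer mitochondrial membrane. Bcl2, Bcl2l1 (Bcl-xL) and Mcl1 hold these effectors in check, and the BH3-only proteins Bcl2l11 (Bim), Bbc3 (Puma) and Pmaip1 (Noxa) release them. In early T cell and innate lymphoid cell (ILC) development, IL-7 keeps progenitors alive in large part through Bcl2, while Bcl2l11 and Bbc3 are classical targets of FoxO and p53 factors.

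Of 7 members with a promoter in the RefSeq table (build GRCm38.p6, 12 annotated starts; none was given for Pmaip1), the 250 bases before the start were searched on both strands for short motifs. The FoxO letters TGTTTAC or GTAAACA were found before 2 of 12 starts, the first listed start of Bcl2l11 and the second of Bbc3, against 3.16% of 32817 promoters. Both windows are shown because these 2 death genes had the largest ratios between the DN2a and DN1 starts in WT. The capitals mark the motif, 227 and 167 bases before the start, and neither window overlaps an exon of its gene in GENCODE M21. A match of letters is a description and not a binding site, and binding of FoxO factors was not measured.
Bcl2l11, chr2:128125788-128126037, plus strand: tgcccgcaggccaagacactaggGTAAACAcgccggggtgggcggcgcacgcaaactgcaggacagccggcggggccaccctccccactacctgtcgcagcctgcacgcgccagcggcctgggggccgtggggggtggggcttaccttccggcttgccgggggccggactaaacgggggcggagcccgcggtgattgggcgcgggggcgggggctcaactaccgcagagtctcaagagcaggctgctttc
Bbc3, chr7:16310011-16310260, plus strand: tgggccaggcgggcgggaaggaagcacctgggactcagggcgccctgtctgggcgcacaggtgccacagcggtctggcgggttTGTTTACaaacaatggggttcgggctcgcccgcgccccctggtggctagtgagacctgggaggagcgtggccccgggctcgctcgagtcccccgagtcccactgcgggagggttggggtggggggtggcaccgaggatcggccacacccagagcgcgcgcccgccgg
The RUNX letters TGTGGT were found before 1 of 12 starts (Bak1) against 14.04% of promoters, and the CSL letters TGGGAA before 1 (Bax) against 21.6%. The TCF letters CTTTGA were found before 1 (Bax) against 13.8%, and the GATA letters AGATAA before 1 (Bcl2l1) against 9.99%. No window held the E-box CAGCTG, found in 13.0% of promoters.

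A barcode counted as a cell where it had 200 or more genes, no more than 2000 UMIs and a mitochondrial share no higher than 30%, which left 60671 cells in all, 3401 to 19489 per library, with 1717136 to 9048728 UMIs per library and no barcode shared between libraries. The median mitochondrial share was 13.3% in WT DN2a and 20.9% to 23.9% elsewhere. Levels are CPM, the UMIs of a gene in every 1000000 UMIs of the library, and every library came from 3 wells of the reverse transcription, 18 in all. Intervals on CPM are exact Poisson and those on ratios exact conditional binomial, at 95%, and both cover counting error only. Bcl11b itself, whose enhancer was deleted, stood at 235, 534 and 856 CPM in WT from DN1, DN2a and DN2b and at 89.3, 256 and 539 CPM in ΔTE. Stromal-gate cells, with 2 or more UMIs of 8 matrix genes, made up 9.56% of WT DN2a, 6.37% of ΔTE DN2a and 1.68% to 3.46% of the others. One well of ΔTE DN2a stood apart, with 13.7% stromal-gate cells against 3.07% and 1.94% in the other 2 and 17.2% mitochondrial UMIs against 22.3% and 24.0%. Values that rest on this library are given with and without that well. In sums over a library, fewer cells of one kind and less RNA per cell cannot be told apart.

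Bcl2 was higher after the DN2a and DN2b starts than after the DN1 start in both genotypes. Its library level was 926 CPM in WT DN1, 1333 in WT DN2a, 1456 in WT DN2b, 1070 in ΔTE DN1, 1433 in ΔTE DN2a and 1547 in ΔTE DN2b. The WT wells lay at 917 to 945 for DN1, 1296 to 1361 for DN2a and 1420 to 1492 for DN2b, so that no start overlapped another. Without stromal-gate cells the WT DN2a wells (1437 to 1524) overlapped those of DN2b (1502 to 1546). The ΔTE DN2a wells stood at 1618 and 1621 CPM, with the stroma-rich well at 968, below every ΔTE DN1 well (1001 to 1106). The log2 ratio of DN2a to DN1 was 0.53 (0.48 to 0.57) in WT and 0.42 (0.37 to 0.47) for all ΔTE wells, and 0.60 (0.55 to 0.65) in ΔTE without that well.

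Bcl2l11, the BH3-only protein that IL-7 withdrawal is known to engage, was also higher after DN2a and DN2b than after DN1 in both genotypes. It was at 37.5 CPM in WT DN1, 62.3 in WT DN2a and 65.1 in WT DN2b, and at 36.4, 47.3 and 60.6 CPM in ΔTE. Wells of DN1 (34.0 to 39.5 over both genotypes) did not overlap those of DN2a, which lay at 61.7 to 63.1 in WT and 44.2 to 54.4 in ΔTE. Its log2 ratio of DN2a to DN1 came to 0.73 (0.51 to 0.96) for WT and 0.38 (0.12 to 0.64) for ΔTE. The WT libraries did not separate DN2b from DN2a for Bcl2l11, with a log2 ratio of 0.06 (-0.19 to 0.31) and overlapping wells. For ΔTE this ratio was 0.36 (0.02 to 0.68), again with overlapping wells. Bbc3 was counted with few UMIs, 11 in WT DN1, 47 in WT DN2a, 19 in WT DN2b, and 14, 32 and 12 in ΔTE. These gave 1.84, 5.19 and 6.95 CPM in WT and 2.37, 5.06 and 6.99 in ΔTE, and a WT ratio of DN2a to DN1 of 1.501 (0.53 to 2.60) on the log2 scale.

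**Figure D1:**
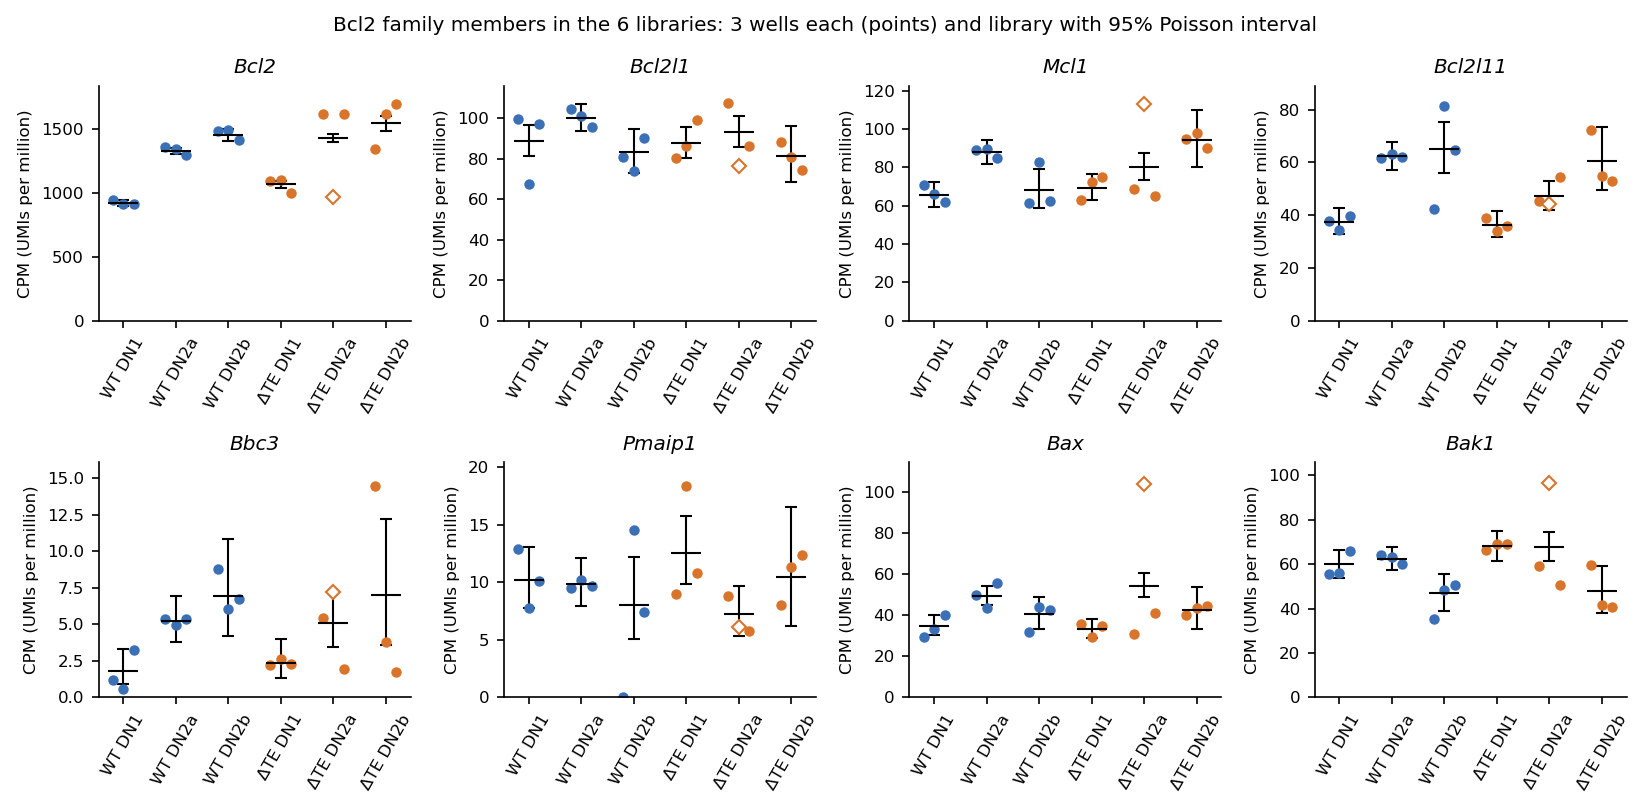
Level of each of the 8 members in CPM (vertical axes, from 0) in the 6 libraries, with 3 wells per library as points, the library as a bar with its 95% Poisson interval, and the stroma-rich ΔTE DN2a well as an open diamond. That well lies lowest for Bcl2 and highest for Mcl1, Bax and Bak1 within its library, and the Bcl2 and Bcl2l11 points of WT DN2a lie above all of WT DN1.

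A member was called between 2 libraries where it had 50 or more UMIs in them, a ratio over 1.2-fold and no overlap between their wells. Between the DN2a and DN1 starts in WT, 5 of 8 members were called, all higher, against 35.3% of the 10883 genes tested. These were Bcl2, Bcl2l11, Bbc3, Mcl1 and Bax. The median of all genes in this comparison lay at 0.15 on the log2 scale, a shift that scaling by trimmed mean of M-values (TMM) removed. With TMM the log2 ratios were 0.37 for Bcl2, 0.58 for Bcl2l11, 1.35 for Bbc3 and 0.27 for Mcl1, all still called, and 0.35 for Bax, which was not, against 32.1% of genes. Bak1, at 0.06 (-0.13 to 0.25) on CPM and -0.09 under TMM, and Pmaip1, at -0.05 (-0.54 to 0.45), were not called.

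In ΔTE the same comparison called 2 of 7 members, against 16.2% of genes. Bcl2l11 was higher after DN2a, and Pmaip1 was lower, at 7.28 CPM against 12.5 (log2 ratio -0.79, -1.35 to -0.24). The Pmaip1 call was lost without stromal-gate cells (-0.69, wells overlapping), where Bcl2 was called (0.49) and so were 16.1% of genes, and with at most 15% mitochondrial UMIs the Pmaip1 ratio was 0.00642. Without the stroma-rich well 4 members were called, against 23.6% of genes, Bcl2 and Bcl2l11 higher and Bak1 and Pmaip1 lower. Mcl1, at 0.21 (0.02 to 0.40) with all wells, was then at -0.05 (-0.26 to 0.17), and Bax moved from 0.71 (0.45 to 0.97) to 0.05 (-0.27 to 0.36). Both comparisons use separate libraries for each genotype, and the difference between the 2 ratios was not tested.

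Over all 6 libraries, with genotype as a block, edgeR's quasi-likelihood test called 4 of 8 members between DN2a and DN1, all higher after DN2a, against 26.1% of 11685 genes. Bbc3 was at 1.19 (SE 0.36, edgeR adjusted p = 0.016), Bax at 0.51 (SE 0.11, adjusted p = 0.0012), Bcl2l11 at 0.48 (SE 0.11, adjusted p = 0.0014) and Bcl2 at 0.39 (SE 0.09, adjusted p = 0.0026). Without the stroma-rich well Bcl2 and Bcl2l11 were called, against 8.9% of genes, and without stromal-gate cells Bcl2, Bcl2l11 and Mcl1, against 17.3%. DESeq2 called Bcl2 alone, 1 of 8 members, against 8.69% of genes. Leaving out 1 library leaves 1 library of its start, so only edgeR's log2 differences are given for these fits. Without WT DN1, ΔTE DN1, WT DN2a and ΔTE DN2a in turn, Bcl2 was at 0.38, 0.40, 0.43 and 0.35. Bcl2l11 was then at 0.40, 0.55, 0.37 and 0.57, and Bax at 0.66, 0.37, 0.67 and 0.38. Bbc3 was also higher after DN2a in each of them. Without WT DN2b, and likewise without ΔTE DN2b, Bcl2, Bcl2l11 and Bax were at 0.38, 0.47 and 0.51.

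The Bax difference between the DN2a and DN1 starts was smaller without stromal-gate cells in both genotypes, and its cause was not tested. Bax stood at 34.9 CPM in WT DN1, 49.3 in WT DN2a, 40.6 in WT DN2b, 33.2 in ΔTE DN1, 54.3 in ΔTE DN2a and 42.5 in ΔTE DN2b. In the stroma-rich well it was at 104 CPM, and in the other 2 wells of that library at 30.9 and 41.0. With stromal-gate cells left out, Bax was at 32.8 CPM in WT DN1 and 35.6 in WT DN2a, a log2 ratio of 0.12 (-0.15 to 0.39), with overlapping wells. In ΔTE it was then still higher after DN2a, at 39.5 CPM against 31.0 (0.35, 0.06 to 0.64), with overlapping wells, of which the stroma-rich well stood at 59.3. Bcl2, Bcl2l11 and Mcl1 kept their WT calls without these cells, against 29.7% of genes, at 0.65 (0.60 to 0.69), 0.84 (0.60 to 1.07) and 0.46 (0.28 to 0.64). Bbc3, with 30 UMIs against 10, then had under 50 UMIs and was not tested. The wells of Bax then lay at 34.0 to 36.9 CPM in WT DN2a and at 26.8 to 37.1 in WT DN1.

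**Figure D2:**
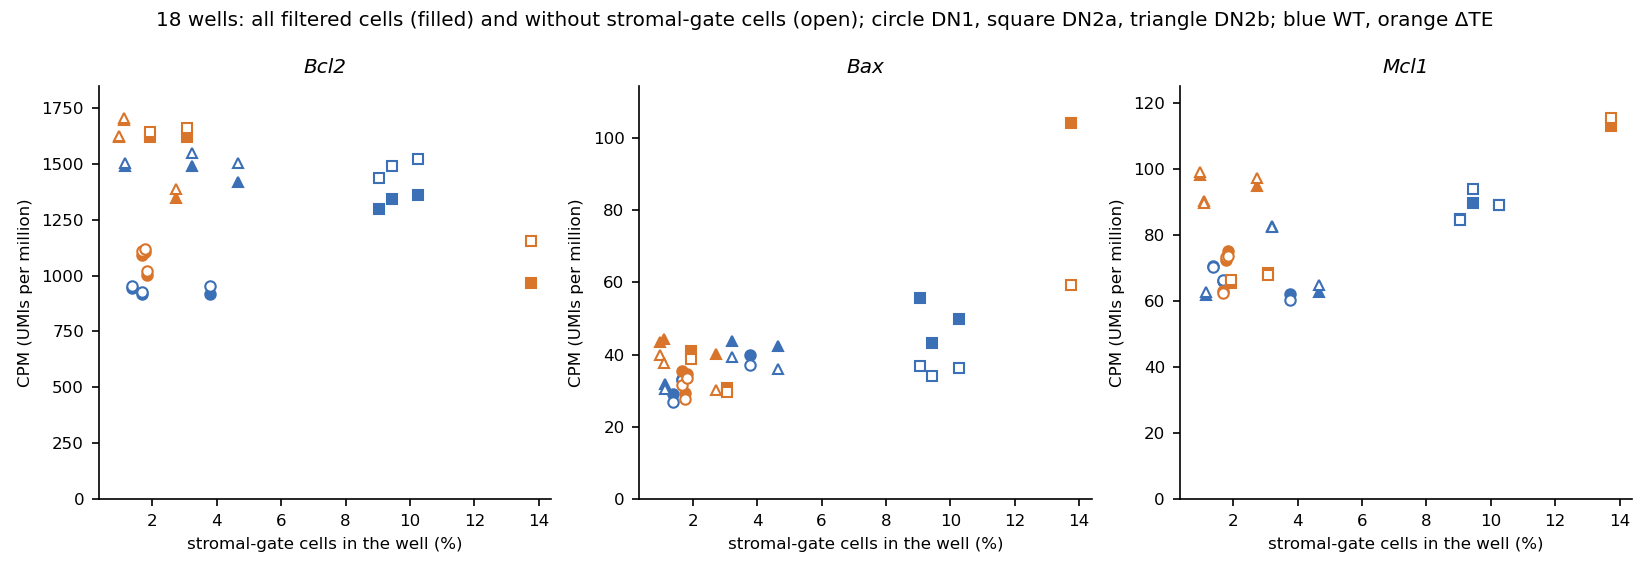
Bcl2, Bax and Mcl1 in CPM (vertical axes, from 0) in the 18 wells against the percentage of stromal-gate cells in the well, for all filtered cells (filled) and without stromal-gate cells (open). The well at 13.7% has the highest Bax (104 CPM, and 59.3 without stromal-gate cells) and Mcl1 (113 and 115 CPM).

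The stroma-rich well differed also in the cells outside the stromal gate. There Bcl2 was at 1153 CPM against 1661 and 1641 in the other 2 wells, Mcl1 at 115 against 67.9 and 66.3, Bax at 59.3 against 29.7 and 38.7, and Bak1 at 96.6 against 59.4 and 50.5. Bcl2l11 was at 45.5 CPM in that well and at 45.9 and 53.8 in the others. What set this well apart was not tested.

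From DN2a to DN2b in WT, 4 of 8 members were called, against 28.8% of genes. Bcl2l1 was lower (100.5 to 83.4 CPM, log2 ratio -0.27), as were Mcl1 (87.9 to 68.4, -0.36) and Bak1 (62.6 to 46.8, -0.42), while Bbc3 was higher (0.42, interval -0.43 to 1.22). The median of all genes lay at -0.19 here. Under TMM the first 3 were at -0.09, -0.18 and -0.24 and none was called. Bcl2 was at 0.13 on CPM and was called higher under TMM, at 0.31, with 20.5% of genes called. Without stromal-gate cells Bcl2 was at 0.03 (-0.02 to 0.09) on CPM, with overlapping wells. In ΔTE 0 of 7 members were called, against 12% of genes. There Bcl2l11 was called higher under TMM (0.44, with 12.5% of genes called), and Bcl2l1 was called lower without stromal-gate cells (-0.29, with 13.4%). Without the stroma-rich well, where 26.9% of genes were called, Mcl1 was called, at 94.3 CPM after DN2b against 67.4 after DN2a (0.49, 0.20 to 0.77). Bak1 stood at 47.8 CPM after DN2b in ΔTE and 46.8 in WT, with 82 and 128 UMIs. Over all 6 libraries, with genotype as a block, edgeR called 0 of 8 members between DN2b and DN2a, with 3 at an unadjusted p under 0.05, against 10.1% of genes, and DESeq2 also called 0.

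**Figure D3:**
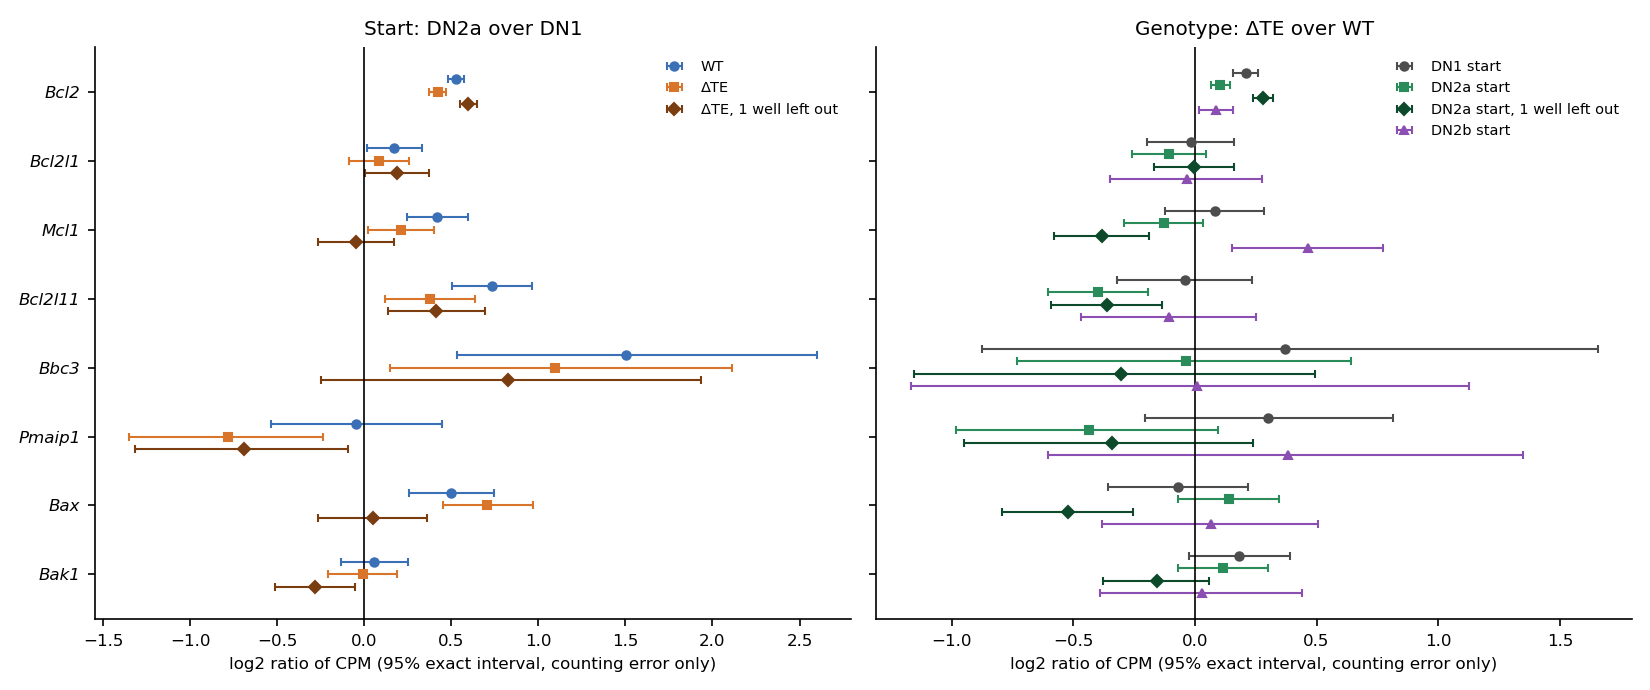
Log2 ratios of CPM (horizontal axes) for the 8 members, with 95% exact intervals for counting error, between the DN2a and DN1 starts (left) and between ΔTE and WT (right). Bcl2 and Bcl2l11 lie above 0 for the start in every set of wells, and Bax moves most when the stroma-rich ΔTE DN2a well is left out (from 0.71 to 0.05 for the start).

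Between genotypes 3 calls were made over 3 comparisons, with 9.27% to 14.5% of all genes called, and between starts 11 over 4 comparisons, with 12% to 35.3%. For the DN1 start 0 of 7 members were called, against 9.27% of genes. Bcl2 was at 1070 CPM in ΔTE and 926 in WT, with no overlap of wells, but its log2 ratio of 0.21 (0.16 to 0.26) was under 1.2-fold. For the DN2a start 2 of 8 were called, both lower in ΔTE, against 13.6% of genes. Bcl2l11 was at 47.3 CPM in ΔTE and 62.3 in WT, a log2 ratio of -0.40 (-0.61 to -0.19) where the median of all genes was -0.14, and -0.27 under TMM, still called, with 9.27% of genes. It stayed lower without stromal-gate cells (-0.48) and without the stroma-rich well (-0.36). The Bcl2l11 call was lost with at most 15% mitochondrial UMIs and with a total without mitochondrial genes. The median mitochondrial share was 13.3% in WT DN2a and 20.9% in ΔTE DN2a. Pmaip1 was at 7.28 CPM in ΔTE and 9.84 in WT, with 46 and 89 UMIs, and its interval of -0.98 to 0.09 held 0. It was not called under TMM.

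Without the stroma-rich well 5 members were called for the DN2a start, against 40.1% of genes. The rule of no overlap is easier to meet with fewer wells. Bcl2 was then higher in ΔTE (0.28, 0.24 to 0.32), and Mcl1 (-0.38), Bax (-0.52), Bcl2l11 and Pmaip1 were lower. When stromal-gate cells were left out as well, Bcl2 was at 0.16 and Bax at -0.12 and neither was called, while Mcl1 was at -0.41 (-0.61 to -0.21), called, against 35.5% of genes. For the DN2b start 1 of 6 members was called, against 14.5% of genes. Mcl1 was at 94.3 CPM in ΔTE, wells 90.2 to 98.1, and at 68.4 in WT, wells 61.7 to 82.6, a log2 ratio of 0.46 (0.15 to 0.77). Mcl1 thus lay on opposite sides of WT after the DN2a start without that well and after the DN2b start, and the difference between them was not tested. That well was picked out after the values were seen. With all wells the DN2a ratio of Mcl1 was -0.13 (-0.29 to 0.03) and was not called. Bcl2l1 had intervals of -0.19 to 0.16, -0.26 to 0.05 and -0.35 to 0.28 for the 3 starts, and Bak1 of -0.03 to 0.39, -0.07 to 0.30 and -0.39 to 0.44. Under TMM the DN2a values of Bcl2l1 and Mcl1 changed sign, from -0.11 to 0.02 and from -0.13 to 0.00. Over all 6 libraries, with start as a block, edgeR called 0 of 8 members between genotypes, with 2 at an unadjusted p under 0.05, against 6.44% of genes, and DESeq2 also called 0. The 2 were Bcl2 at 0.19 (SE 0.08, edgeR adjusted p = 0.153) and Bak1 at 0.19 (SE 0.08, adjusted p = 0.218).

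A ratio of 2 members within a library does not depend on its total. Among cells outside the stromal gate, Bak1 had 6.42 UMIs per 100 of Bcl2 (5.74 to 7.15) in WT DN1, 4.16 (3.79 to 4.55) in WT DN2a and 3.12 (2.59 to 3.73) in WT DN2b. In ΔTE it had 6.25 (5.63 to 6.92), 4.34 (3.91 to 4.81) and 3.12 (2.47 to 3.88), and 3.40 (2.98 to 3.87) in DN2a without the stroma-rich well. Bak1 counts relative to Bcl2 were thus lower after DN2a than after DN1 in both genotypes, with intervals that did not meet. In the same cells Bak1 itself was at 60.7 CPM after DN1 and 61.6 after DN2a in WT, so the WT ratio fell as Bcl2 rose. In ΔTE Bak1 was at 67.9 and 66.3 CPM, and at 56.3 after DN2a without the stroma-rich well. The survival gene Bcl2l1 had 9.52, 6.98 and 5.68 UMIs per 100 of Bcl2 in WT and 8.13, 6.39 and 5.09 in ΔTE from DN1, DN2a and DN2b. Bcl2l11 was at 3.97 (3.45 to 4.54), 4.52 (4.13 to 4.93) and 4.39 (3.75 to 5.11) in WT and 3.38, 3.13 and 3.91 in ΔTE. For Bcl2l11 the DN2a intervals of WT and of ΔTE (2.77 to 3.53) did not meet. These are ratios of UMIs and depend on the length and capture of each transcript, so that they compare libraries and not genes.

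Cells were also compared by the markers they carried, within each library. A gate for ILC and natural killer (NK) markers, 2 or more UMIs of 20 genes with no UMI of Cd3d, Cd3e or Cd3g and under 2 of the stromal and of the myeloid markers, held 14.5% to 28.2% of a library. Its marker UMIs came to 65.7% to 88.4% from Gzma, Gzmb and Nkg7, so it is called the granzyme-led gate here. Cd3 cells, with a UMI of Cd3d, Cd3e or Cd3g and under 2 of each other list, were 90 to 1583 per library, and Gzma, Gzmb and Nkg7 gave 82.9% to 92.5% of the few ILC and NK marker UMIs in them. In the wider Cd3 class used further below, Lck, Tcf7, Rag1, Rag2 and Ptcra were detected, and Cd4 and Cd8a had 0 UMIs at this depth. These 7 genes summed to 821 CPM in that class, 791 in the narrow ILC class and 665 in the remaining cells, both described below. The sum was thus not particular to Cd3 cells, and Tcf7 and Lck held most of its UMIs (1260 and 718 in the Cd3 class). Ptcra, Rag1 and Rag2 had 32, 92 and 93 UMIs in the Cd3 class. They had 0, 0 and 4 in the narrow ILC class and 30, 255 and 320 in the remaining cells. The remaining cells were 71.8% to 88.5% of a library and the Cd3 class 1.27% to 21.5%. Over all libraries these 3 genes thus took a larger share of UMIs in the Cd3 class. The median UMIs per cell were 459 to 618 in the granzyme-led gate and 388 to 554 in Cd3 cells, and the part of this difference in the results was not tested. edgeR's quasi-likelihood test with the library as a block called 398 of 7109 genes (5.6%) between the 2 gates. Of the 6 members tested 0 were called, with 1 at an unadjusted p under 0.05, and DESeq2 also called 0 with 1 under 0.05. Bbc3 and Pmaip1 did not pass the filter on low counts.

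Bcl2 was lower in the granzyme-led gate than in Cd3 cells in 6 of 6 libraries. It was at 1054, 1512, 1488, 1202, 1485 and 1440 CPM in the gate and at 1425, 1596, 1589, 1279, 1604 and 1644 CPM in Cd3 cells, from WT DN1, DN2a and DN2b to ΔTE DN1, DN2a and DN2b. The log2 difference was -0.18 (SE 0.06), with an edgeR adjusted p of 0.056, which missed the threshold. Bax was at 0.30 (SE 0.23), Mcl1 at 0.12 (SE 0.16), Bak1 at 0.09 (SE 0.18), Bcl2l11 at 0.05 (SE 0.18) and Bcl2l1 at -0.01 (SE 0.15), each an edgeR log2 difference with an adjusted p of at least 0.63. The test of whether this difference itself differed by genotype called 0 of 7109 genes (0%) in edgeR, with 351 at an unadjusted p under 0.05, and 0 in DESeq2. For Bcl2 that term was 0.06 (SE 0.11).

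A narrow ILC gate without Gzma, Gzmb, Nkg7, Cd160 and Il17rb, chosen after the values were seen, held 23, 70 and 110 cells in WT and 44, 203 and 196 in ΔTE from DN1, DN2a and DN2b. It was set against the wider Cd3 class, with 131 to 2055 cells per library, and not against the Cd3 cells compared with the granzyme-led gate. There edgeR called 480 of 2581 genes (18.6%) and 0 of 3 members. Bcl2 was at -0.29 (SE 0.12, adjusted p = 0.068) and lower in 5 of 6 libraries, and Mcl1 at 0.74 (SE 0.29, adjusted p = 0.063) and higher in 6 of 6. Mcl1 in the narrow gate stood at 124, 111 and 133 CPM in WT and 78.9, 117 and 125 in ΔTE, from 2, 4, 9, 2, 14 and 14 UMIs.

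The 5 classes that do not overlap, also set after seeing the data, were each tested against the remaining cells, those with none of their markers at the limit. Of the remaining cells 16.0% to 30.8% of a library lay in the granzyme-led gate, since the narrow ILC class does not use Gzma, Gzmb or Nkg7. Progenitor-gate cells (2 or more UMIs of Flt3, Cd34, Bcl11a, Spi1, Lmo2 and Mef2c) had less Bcl2 in 6 of 6 libraries, at 554 CPM in WT DN1 and 643 in ΔTE DN1 against 986 and 1137 in remaining cells. The edgeR log2 difference was -0.68 (SE 0.12, adjusted p = 1.82e-06), and it was the 1 member called there, against 1.5% of genes. This class made up 5.67% of WT DN1 and 5.12% of ΔTE DN1 and at most 1.05% of each other library. Myeloid-gate cells, 3.83% and 2.90% of the DN1 libraries and at most 0.345% elsewhere, had Bcl2 at -1.26 (SE 0.33, edgeR adjusted p = 0.0053), the 1 member called against 4.98% of genes, and lower in 6 of 6 libraries, of which ΔTE DN2b held 1 such cell. This call was lost without either DN1 library, where the difference was -1.503 and -1.507.

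Within the remaining cells alone, Bcl2 was lower after DN1, at 986 CPM against 1470 after DN2a in WT and 1137 against 1535 in ΔTE. Their log2 ratios were 0.58 (0.53 to 0.63) and 0.43 (0.38 to 0.48), the second with overlap from the stroma-rich well. The remaining cells held progenitor markers at 66.6 to 376 CPM and myeloid markers at 24.4 to 177 CPM by library. Progenitor and myeloid cells under the limit may thus be among them. Bcl2l11 was at 0.87 (0.62 to 1.13) and 0.36 (0.08 to 0.64) in the same cells, called in both, against 27.4% and 14.7% of genes. Bcl2l1 was called lower there after DN2b than after DN2a in ΔTE (-0.53), with 13.1% of genes called. Within the progenitor gate, Bcl2 stood at 1163 CPM after DN2a in WT and 1144 in ΔTE, from 141 and 104 UMIs. Cd3 class cells had Bcl2 at 1381 and 1454 CPM after DN1 and at 1566 to 1610 after the later starts. Against the remaining cells this was 0.17 (SE 0.05, edgeR adjusted p = 0.0085), higher in 5 of 6 libraries and the 1 of 7 tested members called, against 5.27% of genes. DESeq2 did not call it (0.19, adjusted p = 0.126), and the edgeR call was lost without WT DN1 (0.12) or WT DN2a (0.19). In the narrow ILC class 0 of 6 members were called against 7.85% of genes, with 2 at an unadjusted p under 0.05 in edgeR and 0 called by DESeq2.

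Stromal-gate cells differed most. Bcl2 was at 227 to 429 CPM in them against 986 to 1615 in remaining cells, lower in 6 of 6 libraries, with an edgeR log2 difference of -1.80 (SE 0.16, adjusted p = 4.75e-29). Bax was at 99.97 to 396 CPM against 31.2 to 39.6, higher in 6 of 6 libraries, at 2.44 (SE 0.17, adjusted p = 6.48e-45). These 2 of 6 tested members were called, against 57.7% of genes. Mcl1 was at 0.30 (SE 0.18), Bak1 at 0.40 (SE 0.20), Bcl2l1 at -0.36 (SE 0.19) and Bcl2l11 at -0.46 (SE 0.24), none called. In the class as a whole the ILC and NK markers summed to 647 CPM against 1770 in remaining cells, and the part of RNA from other cells in the Bcl2 level there was not tested.

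**Figure D4:**
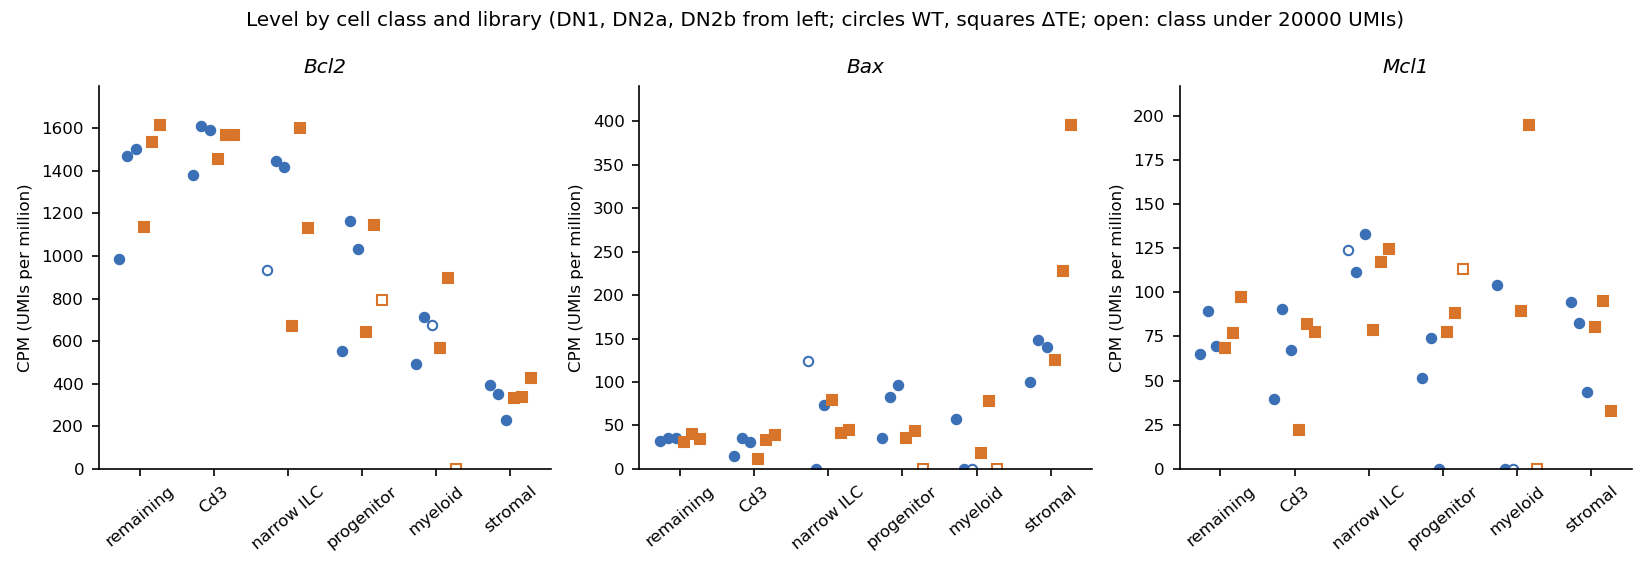
Bcl2, Bax and Mcl1 in CPM (vertical axes, from 0) by cell class, 1 point per library, with open symbols where a class held under 20000 UMIs. Among filled symbols, Bcl2 is lowest and Bax highest in the stromal class, and Bcl2 in remaining cells is lower after the DN1 start (986 and 1137 CPM) than after the others.

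Other genes of the death pathway were taken from gene lists. In the rest of the Bcl2 family 3 of 11 genes reached the count limit between the DN2a and DN1 starts, Bid, Bad and Bcl2l2. Bid, which links death receptors to mitochondria, was higher in the granzyme-led gate than in Cd3 cells, at 0.78 (SE 0.22, edgeR adjusted p = 0.019), the 1 gene of that list tested there. Between genotypes Bid was called higher in ΔTE after DN2a (57.0 against 46.7 CPM). Bad, a BH3-only gene restrained by survival signals, was called lower in ΔTE after DN2a (13.3 against 17.8 CPM) and after DN2b (11.1 against 16.8). Between genotypes 13.6% of genes were called after DN2a and 14.5% after DN2b, with medians of all genes at -0.14 and -0.02. No intervals are given for Bid and Bad, and the levels of Bad were low. Diablo, which relieves caspase inhibition, was called higher after DN2a than after DN1 in WT (41.1 against 28.4 CPM, 0.54 on the log2 scale) and in ΔTE (34.6 against 22.5 CPM, 0.62). Birc5, an inhibitor of apoptosis that is also needed for cell division, was called higher in WT at 0.26 on the log2 scale and was at -0.05 in ΔTE. Its WT ratio lay at the 1.2-fold limit. The median of all genes between these starts was 0.15 in WT and 0.001 in ΔTE, with 35.3% and 16.2% of genes called. The ratios of Diablo and Birc5 are on CPM, without TMM. Between the granzyme-led gate and Cd3 cells Aifm1 (0.11, SE 0.17), Birc5 (0.00, SE 0.17) and Diablo (-0.08, SE 0.23) were not called, with edgeR adjusted p of at least 0.850.

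Of p53 and its targets 7 of 10 tested were called higher after DN2a than after DN1 in WT, with a median log2 ratio of 1.12 and 35.3% of all genes called, and 4 of 9 in ΔTE, with a median of 0.58 and 16.2% of genes. Stromal-gate cells carried 7 of 9 of these genes at a higher level than remaining cells and 1 lower, against 57.7% of genes called, among them Phlda3 at 5.76 (SE 0.22) and Ccng1 at 2.74 (SE 0.15), named after their values were seen. Without stromal-gate cells 6 of 9 were called higher in WT, with a median of 0.58 against 29.7% of all genes called, and 2 of 7 in ΔTE, with a median of 0.19 against 16.1%. Cdkn1a, the p53 target that arrests the cell cycle, was at 1.10 with all cells and 0.70 without stromal-gate cells in WT. Between the granzyme-led gate and Cd3 cells 1 of 6 was called, Sesn2 (0.70, SE 0.22, edgeR adjusted p = 0.042), with Ccng1 at 0.25 and Cdkn1a and Trp53inp1 at -0.41 and -0.47.

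In the IL-7 signalling and FoxO list 6 of 12 genes were called higher after DN2a than after DN1 in WT, against 35.3% of all genes called, and 4 of 12 in ΔTE, against 16.2%, with 0 lower in both. Il7r, the IL-7 receptor chain, was at 67.7 CPM after DN1 and 120 after DN2a in WT, and at 91.0 and 152 in ΔTE. Foxo1 was at 9.84 and 19.8 CPM in WT and at 13.4 and 19.5 in ΔTE, and Socs2, a feedback target of STAT5, at 71.4 and 139 and at 63.2 and 106. Il7r, Socs2 and Foxo1 were named after their values were seen. Between the granzyme-led gate and Cd3 cells 0 of 11 were called, from Akt1 (0.19, SE 0.15) and Jak1 (0.15, SE 0.08) to Foxo1 (-0.22, SE 0.27) and Socs2 (-0.37, SE 0.13), with edgeR adjusted p of at least 0.096.

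The genes most like each member over the 6 libraries were found by the root mean square difference of centred log2 CPM among 7536 genes with at least 600 UMIs. For Bcl2, which spanned 0.74 log2 units, these were Rbm15b (0.06), Mmab (0.06) and the gene row Mir6924 (0.06). For Bcl2l11, which spanned 0.84, they were Pdrg1 (0.07), Trp53i11 (0.07) and Notch1 (0.07), the receptor that OP9-DL1 engages. Mcl1 was nearest to Rpl30 (0.02), Bcl2l1 to Sf3a1 (0.02), Bax to Mlf2 (0.06) and Bak1 to Tmed4 (0.04). These distances describe 6 libraries that share their cultures' differences in depth, stromal share and mitochondrial share.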

How the data were processed

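The 6 sci-RNA-seq3 libraries, 1 per genotype and start, were analysed. The authors deposited raw UMI counts per gene and barcode with no filter on cells. The submitters' processing notes list the genome build mm9, the aligner and counter are not given in the sources used here, and neither is whether introns were counted. Barcodes with 200 or more genes, no more than 2000 UMIs and a mitochondrial share no higher than 30% were taken as cells, and no doublet caller was run. Counts were summed per library and per reverse-transcription well. The sources used here do not say whether wells held separate cultures, so the spread between wells may be technical.

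The members and gene lists were chosen with earlier results of these data known. All 8 members were named. From each other list the 2 highest and 2 lowest differences between marker gates were named, and other list genes were named after their values were seen. Some genes of the apoptosome and caspase list are not reported here, so no count over that list is given. The 3 most alike genes were found for each member with at least 600 UMIs.

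Library sums were compared by exact intervals and by overlap of wells, with no test. The 6 library sums were also fitted with genotype and start as additive terms, each the other's block, which assumes that the genotype difference is alike at every start. Sums per marker class and library were tested with edgeR 4.0.16 (quasi-likelihood test, TMM scaling, library as a block, Benjamini-Hochberg adjustment over all genes tested, threshold 0.05), with DESeq2 1.42.0 as an alternative. In the class fits the block is the library, and p-values measure the spread between these 6 libraries. The fits were tested on simulated data. The narrow gate, the 5 classes, the comparison in remaining cells, the additive fit and the joint removal of stromal-gate cells and 1 well were added after seeing the data. Python 3.11.15 and R 4.3.3 were used.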

Additional observations from a re-analysis of the deposited data

Results flagged for a closer look

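In 17 checks of 6 libraries each, 2 libraries stood apart from the other 5 by Dixon's criterion, where chance alone marks about 1 in 20. The log2 difference of Bcl2 between the granzyme-led gate and Cd3 cells was -0.436 in WT DN1 and between -0.191 and -0.0777 in the others. The WT DN1 Cd3 cells held 192 UMIs of Bcl2. The log2 difference of Bak1 between the Cd3 class and remaining cells was 0.718 in ΔTE DN1 and between -0.252 and 0.0886 in the others.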

How the results depend on the processing

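With at most 15% mitochondrial UMIs, 0 members were called between genotypes (3 in the report), 6 between starts (11 in the report) and 18 genes between the granzyme-led gate and Cd3 cells (398 in the report), and the log2 ratio of Pmaip1, DN2a against DN1 start, dTE (ΔTE), moved from -0.79 to 0.00642. A fold of 1.5 left 0 genotype and 3 start calls, and a total without mitochondrial genes 1 genotype call. Cells in none of the 5 classes gave 6 start calls, against 13.1% to 27.4% of genes by comparison. For the fold, the mitochondrial limit and that total, the share of all genes called between libraries is not given here. Their counts thus do not show whether the members lost more calls than genes in general. Leaving out 1 well at a time gave 3 to 6 genotype and 9 to 14 start calls, the 6 without the stroma-rich ΔTE DN2a well. The 398 genes became 225 with at least 300 genes per cell, 200 by DESeq2, 171 with at least 2 Cd3 UMIs, 130 in cells thinned to 300 UMIs, and 282 to 381 without 1 library. Of the members 1 was called there with at most 50% mitochondrial UMIs, and 0 to 0 without 1 library, as for the genotype difference and the narrow gate. Cd3 against remaining cells gave 0 by DESeq2 and 0 to 1 without 1 library, progenitor 1 to 1, myeloid 0 to 2 and stromal 2 to 5, the 2 and the 5 without ΔTE DN2b. With genotype as a block, the 4 members called between DN2a and DN1 became 1 by DESeq2, against 8.69% of genes. Without the stroma-rich well they became 2, against 8.9%. Fits between starts without 1 library leave 1 library of a start, so their calls are not counted. Between genotypes, with start as a block, 0 to 0 members were called without 1 library. The cause of these changes was not tested. Few UMIs limit Bbc3 and Pmaip1, and 1 library per condition limits each genotype and start comparison.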
